A study of Mus musculus with 12 samples.

Results

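Retinoic acid genes were followed in fetal mouse testes through 12 probe sets, all those that the platform annotation assigns to 1 of 9 genes alone, out of 45101 probe sets on the array. The genes are Aldh1a1 and Aldh1a2 (synthesis), Cyp26b1 (breakdown), Crabp1 and Crabp2 (binding), and Rara, Rarb, Rarg and Rxra (receptors), with 3 probe sets for Rxra, 2 for Rarg and 1 for each of the others. Total RNA of E15.5 testes was labelled with biotin and hybridised to 12 Affymetrix arrays in 4 groups of 3, namely 129Sv testes labelled dmrt1 knockout, 129Sv wild type, B6 testes labelled dmrt1 knockout and B6 wild type. Dmrt1 encodes a DM domain transcription factor of germ cells and Sertoli cells, and the series text calls its removal conditional. The titles mark the knockout arrays with -_- and the wild types with WT, and name no driver. The sources used here do not give the driver of the removal, the part of the gene removed or whether an array stands for 1 animal, and the spread behind each p-value is that between these arrays, which may be technical. The labels' growth protocol names P28, against the E15.5 of every sample label. The last number in the titles was 1 to 3 in B6 knockouts and 4 to 6 in B6 wild types. On the 129Sv arrays it was 7 to 12. Its meaning is not given, and it cannot be told apart from strain, nor from genotype in B6.

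Retinoic acid is made from retinol through retinal, and ALDH1A enzymes carry out the last step. CRABP1 and CRABP2 bind it in the cytoplasm, CRABP2 hands it to the nuclear receptors, and receptors of the RAR family act on DNA as dimers with an RXR partner. CYP26 enzymes break it down, and in the mouse fetal testis Cyp26b1 of somatic cells keeps germ cells from the retinoic acid signal that starts meiosis. Rarb is itself a classic target, through a response element in its promoter.

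That element was found in the RefSeq promoter windows (GRCm38.p6, 250 bases before to 50 after a gene's start), which cover 8 of the 9 genes in 14 windows. Crabp2 was not searched. The element was searched on both strands as a direct repeat of the receptor core site, where each copy could be the consensus AGGTCA, the variant form GGGTCA, the second variant form AGTTCA or the last variant form GGTTCA, with 1, 2 or 5 bases between the copies. Of all 32851 windows, 0.0974% held a repeat with spacing 5, and among the 14 only that of Rarb did, from 53 to 37 bases before the start. Repeats with spacing 1 (0.222% of all windows) or 2 (0.268%) were in none of the 14. The single site AGGTCA, which can lie inside such a repeat, was in 16.3% of all windows and in 3 of the 14, 1 each of Rara, Rarg and Rxra. ACATTGT, a core of the sequence that DMRT1 prefers, was in 2.96% of all windows and in none of the 14. The Rarb window (chr14:16575427-16575726, minus strand) is shown for its element. A window of Rarg (chr15:102257473-102257772, minus strand) and one of Rxra (chr2:27709042-27709341, plus strand) are shown because these receptors passed the test in 129Sv. Capitals mark the repeat in Rarb, and AGGTCA or its reverse complement TGACCT in the others.
Rarb: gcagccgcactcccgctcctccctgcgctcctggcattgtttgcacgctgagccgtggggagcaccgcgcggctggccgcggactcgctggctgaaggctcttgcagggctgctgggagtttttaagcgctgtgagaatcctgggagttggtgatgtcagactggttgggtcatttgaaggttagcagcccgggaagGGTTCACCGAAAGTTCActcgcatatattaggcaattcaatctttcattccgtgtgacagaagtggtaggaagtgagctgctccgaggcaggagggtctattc
Rarg: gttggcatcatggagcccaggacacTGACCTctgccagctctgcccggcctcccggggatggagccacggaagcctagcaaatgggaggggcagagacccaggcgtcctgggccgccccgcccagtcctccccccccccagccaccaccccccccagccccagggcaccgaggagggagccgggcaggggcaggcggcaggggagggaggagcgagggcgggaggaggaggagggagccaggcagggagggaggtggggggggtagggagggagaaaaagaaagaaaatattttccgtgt
Rxra: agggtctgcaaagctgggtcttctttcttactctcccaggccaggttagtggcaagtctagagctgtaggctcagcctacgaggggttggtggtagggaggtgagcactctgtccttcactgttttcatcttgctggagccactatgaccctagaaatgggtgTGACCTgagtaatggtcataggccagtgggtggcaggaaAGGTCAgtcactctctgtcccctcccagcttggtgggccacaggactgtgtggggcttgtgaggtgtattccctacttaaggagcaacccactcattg

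The deposited values are GCRMA intensities, which were compared as log2 values over 24820 probe sets that reached an intensity of 16 (log2 of 4) in at least 3 arrays. A probe set passed at an adjusted p under 0.05 (limma, Benjamini-Hochberg over the 24820). Of the 12 probe sets, 9 entered the test, 1 for each gene, and each of these reached 16 on at least 1 array of every group. The other 3, 1 of Rarg and 2 of Rxra, stayed below 16 on all 12 arrays, between 4 and 12.81. Dmrt1 lay between 145.3 and 181 in 129Sv knockout testes, against 924 to 1183 in 129Sv wild type, and between 64.0 and 86.4 in B6 knockout, against 795 to 1092 in B6 wild type (log2 differences -2.64 ± 0.17 and -3.72 ± 0.17, limma adjusted p = 3.21e-06 and 2.57e-07). Among knockouts Dmrt1 was 2.25-fold higher in 129Sv than in B6 (1.17 ± 0.17, limma adjusted p = 0.000345). The wild types did not differ past the threshold (0.09 ± 0.17, limma adjusted p = 0.790). The part of this difference in the strain comparisons was not tested. The Actb ratio, that of its 3′ over its 5′ probe set and a sign of RNA quality, was 5.24 in 129Sv knockout replicate 1, 6.30 in B6 knockout replicate 3 and at most 3.91 on the other 10 arrays. In bulk testes, fewer cells of a type and less RNA per cell cannot be told apart.

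The binding protein gene Crabp2 had the largest change of the 9. Its intensity was 2178, 1829 and 2521 on the 129Sv knockout arrays, against 217, 291 and 372 on the 129Sv wild-type arrays. In B6 it was 435, 515 and 808 in knockout testes, against 271, 405 and 339 in wild type. The knockout arrays lay above all wild-type arrays in each strain, far above in 129Sv and by a narrow margin in B6. Crabp2 rose 7.53-fold in 129Sv (log2 difference 2.91 ± 0.25, SE, n = 3 per group, limma adjusted p = 2.10e-05). In B6 the log2 difference was 0.76 ± 0.25 (95% interval 0.23 to 1.29) and did not pass (limma adjusted p = 0.101), although it did without B6 knockout replicate 1, the lowest of the 3 (0.95, limma adjusted p = 0.0483). The highest B6 knockout value, 808, was that of replicate 3, the array with the Actb ratio of 6.30, and the part of RNA quality was not tested. The 129Sv rise passed in all 26 alternative settings, with log2 differences between 2.71 and 3.10.

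The knockout effect on Crabp2 was larger in 129Sv than in B6. The effects differed by 2.15 ± 0.35 on the log2 scale (129Sv minus B6, 95% interval 1.40 to 2.90, limma adjusted p = 0.0184). Crabp2 was the only one of the 9 genes whose effects differed past the threshold, where 0.298% of all tested probe sets did. The call ended when 129Sv wild-type replicate 1, 129Sv knockout replicate 3, B6 wild-type replicate 2 or 3 or B6 knockout replicate 2 was left out (differences from 1.95 to 2.14, limma adjusted p from 0.0538 to 0.0661). It also ended with the number before the strain in the titles as a covariate (2.13, limma adjusted p = 0.171). That number is 7 in all 129Sv knockouts and in wild-type replicate 2 and 11 in the other 129Sv wild types. It is 10 on the B6 arrays whose titles give it. The covariate marked only the arrays with 11. In that fit, here and below, the 129Sv wild-type mean therefore came from replicate 2 alone.

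**Figure D1:**
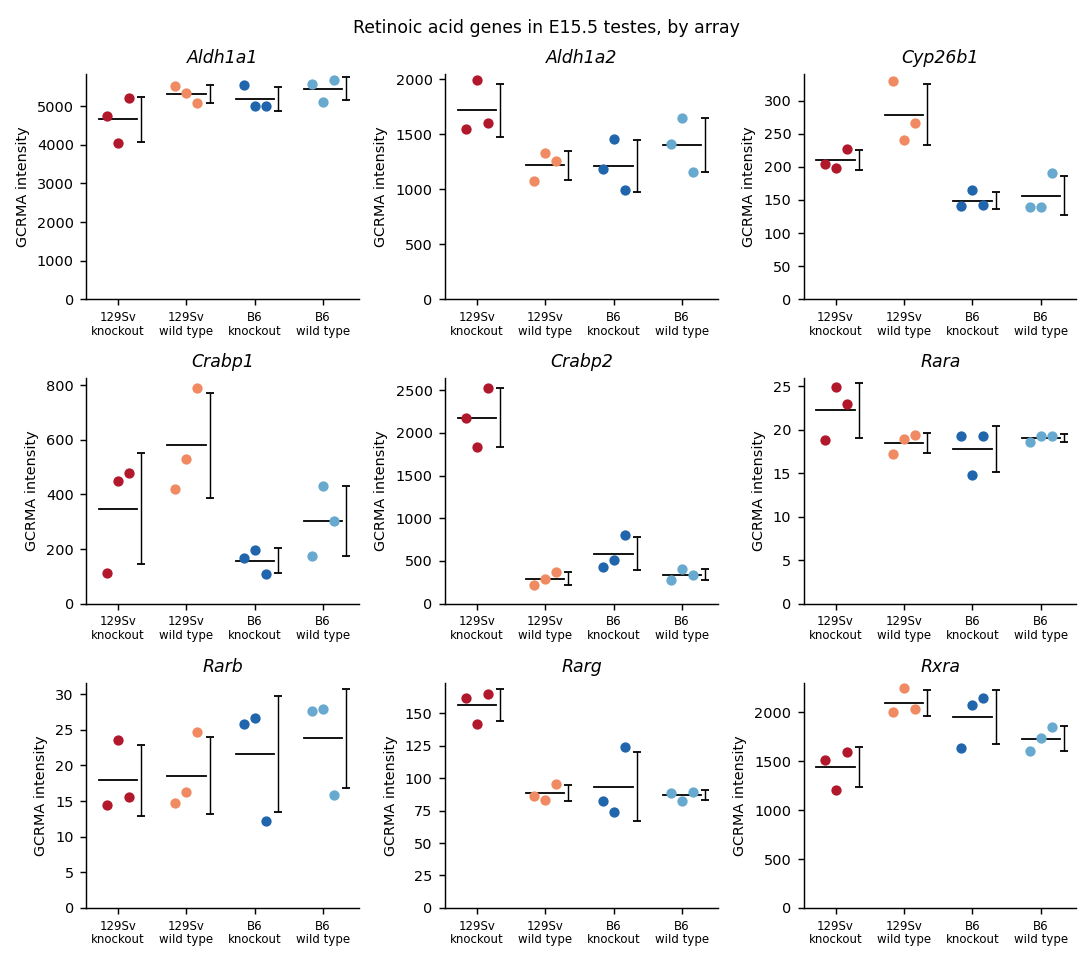
GCRMA intensity (linear axis from 0) of the 9 tested probe sets on each array, with points for arrays in the order of replicates 1 to 3, a line for the group mean and a bar for ± 1 SD (n = 3). Crabp2 stands between 1829 and 2521 on the 129Sv knockout arrays and at most at 808 on the other 9.

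Crabp1, the other binding protein gene, did not pass in either strain and varied most between arrays of a group. Its intensity was 114, 449.7 and 479 in 129Sv knockout testes, against 419, 529 and 791 in 129Sv wild type. In B6 it was 168, 199 and 107 in knockout testes, against 175, 430.0 and 304 in wild type. The groups overlapped in both strains, and the lowest knockout value of each strain came from the array with its highest Actb ratio. The log2 differences were -0.95 ± 0.49 in 129Sv (95% interval -1.99 to 0.10) and -0.89 ± 0.49 in B6 (-1.94 to 0.16), with limma adjusted p of 0.354 and 0.301. Without those 2 arrays they were -0.27 and -0.64 (limma adjusted p = 0.727 and 0.350).

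Of the retinoic acid receptors, Rarg rose in 129Sv. Its tested probe set gave 162, 142 and 165 in 129Sv knockout testes, against 86.1, 83.5 and 95.3 in 129Sv wild type. All 129Sv knockout arrays lay above all wild-type arrays, a 1.77-fold rise (log2 difference 0.82 ± 0.19, SE, limma adjusted p = 0.0241). In B6 the values were 82.3, 74.1 and 124 in knockout testes, against 88.4, 82.4 and 89.6 in wild type, and the groups overlapped (0.07 ± 0.19, 95% interval -0.34 to 0.48, limma adjusted p = 0.858). The highest B6 value was again that of knockout replicate 3. The difference of the effects was 0.75 ± 0.27 (129Sv minus B6) and did not pass (limma adjusted p = 0.267). The 129Sv call ended when any of the 6 129Sv arrays was left out (log2 differences from 0.78 to 0.89, limma adjusted p from 0.0581 to 0.0969) or when the title number entered as a covariate (0.90, 0.183).

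Rxra, which encodes the dimer partner of these receptors, fell in 129Sv. Its bright probe set gave 1509, 1209 and 1595 in 129Sv knockout testes, against 2005, 2252 and 2032 in 129Sv wild type. The groups did not overlap, and Rxra fell 1.47-fold (log2 difference -0.55 ± 0.13, SE, limma adjusted p = 0.0261). In B6 it was 1632, 2074 and 2149 in knockout testes, against 1600, 1741 and 1854 in wild type. There the groups overlapped, with a log2 difference of 0.16 ± 0.13 (95% interval -0.12 to 0.45, limma adjusted p = 0.477). The effects differed by -0.72 ± 0.19 (129Sv minus B6), which did not pass (limma adjusted p = 0.127). The 129Sv call ended when any 129Sv array but knockout replicate 3 was left out (log2 differences from -0.59 to -0.43, limma adjusted p from 0.0597 to 0.118), without a variance trend (0.0571) or when the title number entered as a covariate (-0.66, 0.140).

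Rara and Rarb lay near the lower limit of the test. Rara, a receptor gene known to act in Sertoli cells, lay between 14.8 and 24.9 over the 12 arrays. Its groups overlapped in each strain (log2 differences 0.26 ± 0.19 in 129Sv and -0.11 ± 0.19 in B6, limma adjusted p = 0.586 and 0.765). Rarb was 14.5, 23.6 and 15.6 in 129Sv knockout testes, against 14.7, 16.3 and 24.8 in 129Sv wild type. In B6 it was 25.9, 26.7 and 12.2 in knockout testes, against 27.7, 27.9 and 15.8 in wild type. Rarb had no detectable difference at these intensities, with log2 differences of -0.05 ± 0.35 in 129Sv (95% interval -0.80 to 0.70) and -0.18 ± 0.35 in B6 (-0.93 to 0.57) and limma adjusted p of 0.971 and 0.794.

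Neither synthesis gene passed in either strain. Aldh1a1, which in the fetal testis is a gene of Sertoli cells, ranged from 4042 to 5206 in 129Sv knockout testes, against 5076 to 5529 in 129Sv wild type, and from 4998 to 5546 in B6 knockout, against 5113 to 5668 in B6 wild type. Its log2 differences were small, -0.20 ± 0.09 in 129Sv and -0.07 ± 0.09 in B6 (limma adjusted p = 0.301 and 0.679). Aldh1a2, the main retinoic acid source of the early embryo, was 1551, 1998 and 1607 in 129Sv knockout testes, against 1074, 1330 and 1254 in 129Sv wild type. These groups did not overlap, yet the log2 difference of 0.49 ± 0.17 did not pass (limma adjusted p = 0.121). It passed with array weights (0.0310), with the replicate number as a block (0.0484) and when the Actb ratio entered as a covariate (0.0453). In B6 Aldh1a2 was 1188, 1462 and 995 in knockout testes, against 1409, 1648 and 1160 in wild type, with overlap and a log2 difference of -0.21 ± 0.17 (limma adjusted p = 0.466). The knockout was the lower at each replicate number, but these numbers were not read as pairs.

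Cyp26b1, the breakdown enzyme gene, passed between strains and did not pass between genotypes. It was 204, 199 and 227 in 129Sv knockout testes, against 330, 240.3 and 266 in 129Sv wild type, and 140.3, 164 and 143 in B6 knockout, against 139.9, 139.9 and 190.3 in B6 wild type. All 129Sv arrays lay above all B6 arrays. The knockout arrays lay below the wild-type arrays in 129Sv, but the log2 difference of -0.40 ± 0.17 did not pass (95% interval -0.77 to -0.02, limma adjusted p = 0.250), and in B6 it was -0.06 ± 0.17 with overlap (limma adjusted p = 0.866). Between strains Cyp26b1 was 1.78-fold higher in 129Sv among wild types (0.83 ± 0.17, limma adjusted p = 0.00699) and 1.41-fold higher in 129Sv among knockouts (0.50 ± 0.17, limma adjusted p = 0.0457). The wild-type call ended with the title number as a covariate (0.63, limma adjusted p = 0.127). The knockout call was near the threshold and ended in 14 of 26 alternatives (log2 differences from 0.43 to 0.57 over all 26, limma adjusted p up to 0.143).

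**Figure D2:**
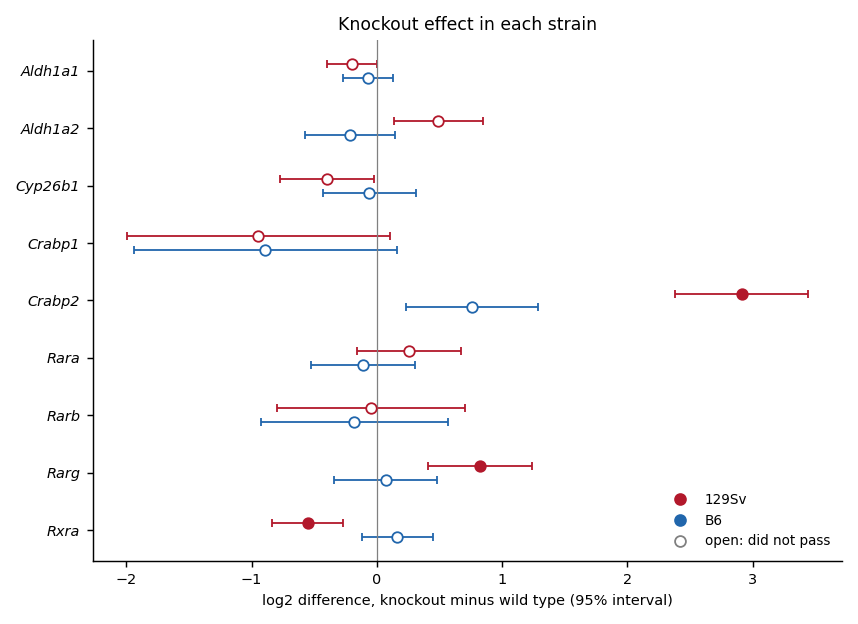
Log2 difference of each gene, knockout minus wild type, in 129Sv (upper) and B6 (lower), with 95% intervals from limma, filled where the adjusted p is under 0.05. Crabp2 (2.91), Rarg (0.82) and Rxra (-0.55) pass in 129Sv and none passes in B6.

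In all, 3 of the 9 tested probe sets passed in 129Sv, where 5.24% of all tested probe sets did, 2 of them higher and 1 lower (2.74% and 2.51% of all). In B6 none passed, where 4.61% of all did, and 1 (Crabp2) had an unadjusted p under 0.05. The groups did not overlap for 5 of the 9 in 129Sv, against 26.9% of all tested probe sets, and for 1 in B6, against 24.8%. The median log2 difference of the 9 was -0.05 in 129Sv and -0.07 in B6, against -0.01 and 0.01 over all.

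Between strains, the wild types differed in Cyp26b1 alone, 1 of 9 where 13.6% of all tested probe sets passed. Sequence differences between the strains under the probes were not checked in any comparison of strains. The wild types of the 2 strains did not overlap for 2 of the 9, Cyp26b1 and Rxra (38.3% of all). Among knockouts 5 of the 9 passed, where 30.0% of all did, 4 higher in 129Sv (17.2% of all) and 1 lower (12.7%). The same 5 did not overlap between the knockouts (42.0% of all). Besides Cyp26b1, these were Crabp2, 3.81-fold higher in 129Sv knockouts (1.93 ± 0.25, limma adjusted p = 0.000113), Rarg, 1.71-fold higher (0.78 ± 0.19, 0.00905), Aldh1a2, 1.42-fold higher (0.51 ± 0.17, 0.0341), and Rxra, 1.36-fold lower (-0.44 ± 0.13, 0.0226). These knockout arrays are also those of the comparisons within strains, so the values above are not independent of them. The calls of Aldh1a2 and Rxra ended in 8 and 6 of 26 alternatives, among them the fit without the 2 arrays of the highest Actb ratio (limma adjusted p = 0.0929 and 0.0747), while those of Crabp2 and Rarg passed in all 26. With array weights Rara was also higher in 129Sv knockouts (0.49, limma adjusted p = 0.0284). The Aldh1a2 call ended when 129Sv knockout replicate 2 or 3 or B6 knockout replicate 1 or 3 was left out (limma adjusted p from 0.0615 to 0.126), and that of Rxra when 129Sv knockout replicate 2 or B6 knockout replicate 2 or 3 was (0.0651 to 0.0881). Crabp1 was 1.97-fold higher in 129Sv wild types and 1.90-fold higher in 129Sv knockouts, with overlap and without passing (limma adjusted p = 0.211 and 0.166), but passed in both genotypes without the 2 arrays of the highest Actb ratio (log2 differences 0.98 and 1.35, limma adjusted p = 0.0365 and 0.0189). Without 129Sv knockout replicate 1 alone the difference among knockouts was 1.60 (limma adjusted p = 0.00894).

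**Figure D3:**
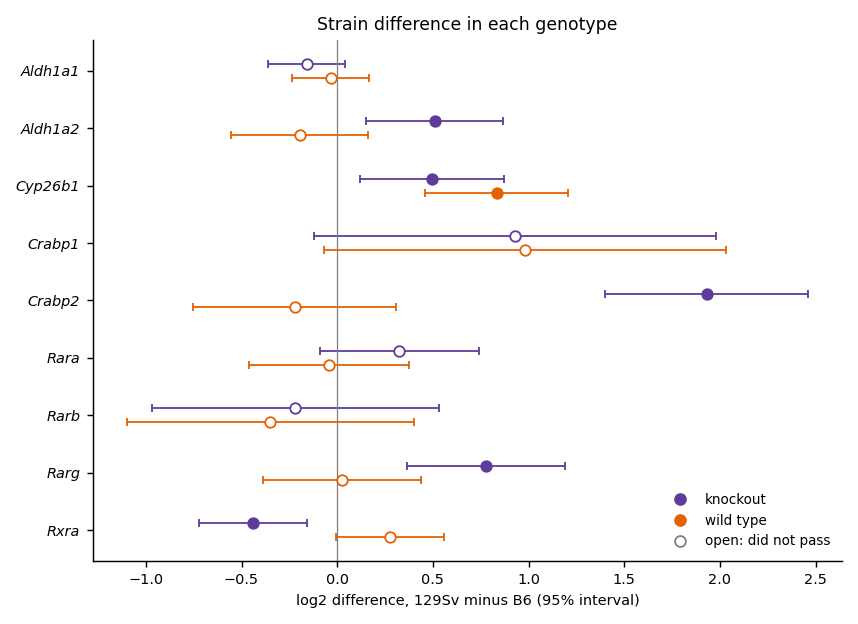
Log2 difference of each gene, 129Sv minus B6, among knockouts (upper) and wild types (lower), with 95% intervals from limma, filled where the adjusted p is under 0.05. Cyp26b1 passes in both genotypes (0.50 and 0.83), and Crabp2 in knockouts (1.93) but not in wild types (-0.22).

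Markers of the testis cell types were read beside these values. Their lists were chosen with earlier results of these data known, so the counts below are no test of the lists. Of 8 germ cell genes none passed in 129Sv. In B6 4 (Gtsf1, Mov10l1, Dnd1 and Mael) fell and 4 did not pass. Of the latter, Ddx4 was 1700 to 2771 in B6 knockout, against 2859 to 3223 in B6 wild type. Tdrkh was 27.35 to 118, against 107 to 166. Dazl was 1272.5 to 2930, against 2204 to 2287, and Pou5f1 421 to 739, against 476 to 701. The summed intensity of the 8 was 18079 to 23750 in 129Sv knockout testes, against 21806 to 22825 in 129Sv wild type. It was 7155 to 11093 in B6 knockout, against 15333 to 18502 in B6 wild type. The lowest sum, 7155, was that of B6 knockout replicate 3, the array with the Actb ratio of 6.30. Between the knockouts of the strains, all 8 germ cell genes passed as higher in 129Sv, where 17.2% of all tested probe sets did. Those that passed as lower in 129Sv were 3 of 8 Sertoli cell, 3 of 4 fetal Leydig cell and 3 of 5 endothelial genes. So did 1 of 5 interstitial and peritubular, 1 of 5 macrophage and 1 of 3 mesonephros genes, where 12.7% of all did. Between genotypes, of 8 Sertoli cell genes only Cst9 passed, lower in the knockouts of both strains. The sum of the Sertoli cell genes was 14680 to 17644 in 129Sv knockouts, against 18249 to 19770 in 129Sv wild type. In B6 it was 18053 to 19796 in knockouts, against 19679 to 20984 in wild type. These sums include Cst9, at 1461 to 1599 in 129Sv knockouts, against 3369 to 3773 in 129Sv wild type. In B6 Cst9 was 1371 to 1440 in knockouts, against 3495 to 3719 in wild type. None of the 4 fetal Leydig cell, 5 interstitial and peritubular, 5 endothelial and 5 macrophage genes passed in either strain, and of 3 mesonephros genes Pax8 fell in 129Sv. The sum of the Leydig cell genes was 13693 to 15421 in 129Sv knockouts, against 17004 to 17775 in 129Sv wild type, and 18408 to 25111 in B6 knockouts, against 16868 to 20052 in B6 wild type. That of the endothelial genes was 709 to 962 in 129Sv knockouts, against 1016 to 1073 in 129Sv wild type, and 1206 to 1317 in B6 knockouts, against 1116 to 1218 in B6 wild type. That of the macrophage genes was 648 in B6 knockout replicate 3, of which Csf1r made up 504, and 238 and 332 in the other B6 knockouts, against 184 to 309 in B6 wild type. The part of cell composition in the results was not tested.

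Of 36 other genes of the pathway, 30 had a probe set of their own and 21 were tested. In 129Sv 1 rose and none fell, and in B6 1 fell and none rose, which is near the share of all tested probe sets that passed (5.24% and 4.61%). The median log2 difference of the 21 was 0.07 in 129Sv and 0.11 in B6, against -0.01 and 0.01 over all tested probe sets. No synthesis, retinol transport, receptor or coregulator gene passed in either strain. Cyp26a1, the other breakdown gene with a probe set, was too dim for the test.

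The gene that rose in 129Sv was Rec8, a meiotic cohesin gene that retinoic acid induces. It was 144, 80.2 and 81.7 in 129Sv knockout testes, against 50.5, 52.6 and 53.7 in 129Sv wild type. It was 72.5, 75.9 and 80.3 in B6 knockout, against 45.0, 43.4 and 46.2 in B6 wild type. The knockout arrays lay above the wild-type arrays in both strains, and the log2 difference passed in 129Sv (0.91 ± 0.21, limma adjusted p = 0.0245) but not in B6 (0.76 ± 0.21, 0.0597). The 129Sv call ended without any of its 3 wild-type arrays or without knockout replicate 1 (log2 differences from 0.63 to 0.93, limma adjusted p from 0.0742 to 0.100) or when the title number entered as a covariate (0.244).

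The gene that fell in B6 was Stra8, the retinoic acid target needed for meiotic entry. It was 25.0, 14.9 and 23.9 in 129Sv knockout testes, against 16.2, 19.9 and 18.1 in 129Sv wild type. In B6 it was 14.4, 16.4 and 25.6 in knockout testes, against 69.3, 39.9 and 29.0 in wild type. The groups were apart in B6 only (log2 difference -1.24 ± 0.32, limma adjusted p = 0.0460), and the difference of the effects, 1.45 ± 0.46, did not pass (limma adjusted p = 0.207). The B6 call ended in 14 of 25 alternatives. Among them were the fits without B6 wild-type replicate 1 or 2 or B6 knockout replicate 1 or 2 (log2 differences from -1.30 to -0.90, limma adjusted p up to 0.122). In the same comparison 4 of the 8 germ cell markers fell and the other 4 did not pass. The part of cell composition in the Stra8 difference was not tested.

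Between strains the retinol carriers stood apart. Rbp4, the retinol binding protein gene of blood, lay between 119 and 233 in 129Sv knockout testes, against 37.7 to 44.7 in B6 knockout, and between 163 and 264 in 129Sv wild type, against 43.6 to 65.7 in B6 wild type. Its log2 differences, 129Sv minus B6, were 2.14 ± 0.26 in knockouts and 1.93 ± 0.26 in wild types (limma adjusted p = 8.19e-05 and 0.000354). Stra6, the gene of the membrane receptor that takes retinol from RBP4, went the other way, at 73.9 to 122 in 129Sv knockouts, against 270 to 499.5 in B6 knockouts, and 150.5 to 196 in 129Sv wild types, against 227 to 412 in B6 wild types. Its log2 differences were -1.87 ± 0.28 and -0.94 ± 0.28 (limma adjusted p = 0.000354 and 0.0405). Among wild types Stra8 and Meis2 were also lower in 129Sv, so that 4 of the 21 passed, where 13.6% of all tested probe sets did. Among knockouts 6 of the 21 passed, near the 30.0% of all, and the other four were Rdh10, Aldh1a3 and Dhrs3, which were lower in 129Sv, and Fabp5, which was higher.

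**Figure D4:**
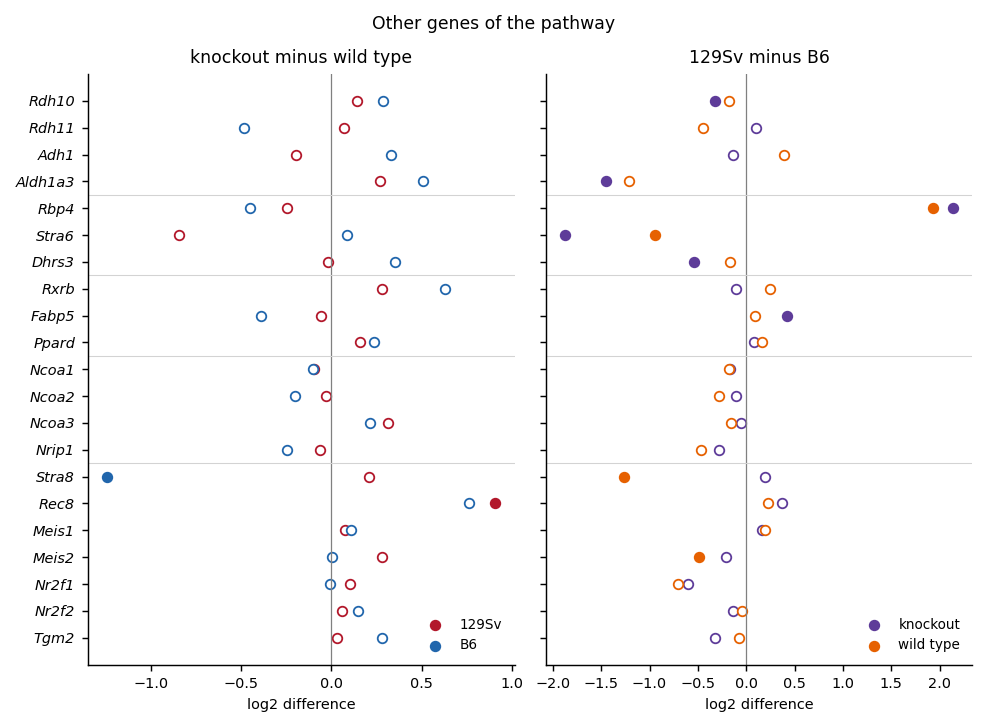
Log2 differences of 21 other genes of the pathway, knockout minus wild type in each strain (left) and 129Sv minus B6 in each genotype (right), filled where the adjusted p is under 0.05. Lines part synthesis, transport and storage, receptors, coregulators and targets. Rbp4 (2.14 and 1.93) and Stra6 (-1.87 and -0.94) pass between strains in both genotypes.

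The patterns nearest to that of Crabp2 were sought among all tested probe sets with 1 gene, by the root mean square difference of log2 values, each centred on its mean, over the 12 arrays, which include the arrays of every comparison above. The nearest were Cbr3, a carbonyl reductase gene (0.37), Mei4, a gene of meiotic DNA breaks (0.39), and Mcf2, a guanine nucleotide exchange factor gene (0.39). Cbr3 was 256, 310 and 321 in 129Sv knockout testes, against 57.1, 58.0 and 53.1 in 129Sv wild type, and 64.2, 69.3 and 80.7 in B6 knockout, against 57.9, 61.6 and 58.7 in B6 wild type. Mei4 and Mcf2 reached 16 almost only in 129Sv knockouts, with 43.7 to 75.7 and 19.4 to 42.5, against at most 11.7 and 4.30 in 129Sv wild type. Such genes entered the test through the group in which they are high, so no test is given for them. The B6 knockout arrays stood between the 129Sv knockouts and the wild types in all 4 genes, with replicate 3 the highest of the 3 in each.

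**Figure D5:**
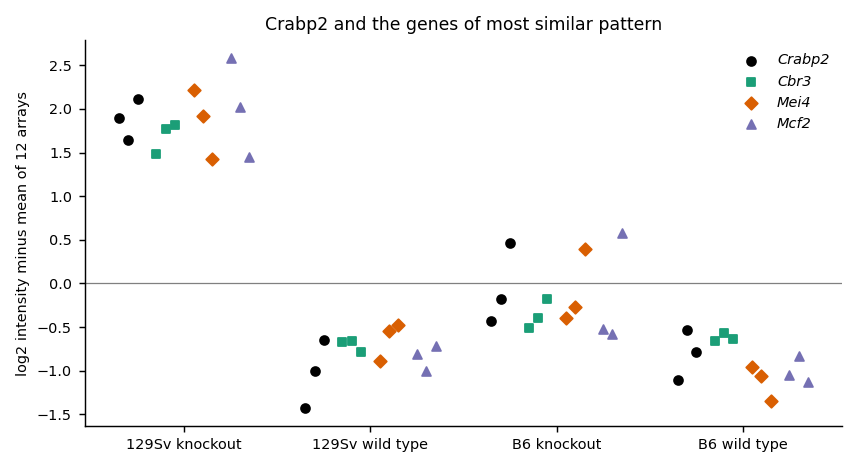
Log2 intensity minus the mean of the 12 arrays for Crabp2 and the 3 genes of most similar pattern, by array and group (points of a gene in the order of replicates 1 to 3). All 4 genes are highest in the 3 129Sv knockout arrays.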

How the data were processed

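The authors deposited 1 table of intensities for 12 arrays, which they summarised per probe set with GCRMA, per the submitters' processing notes; the sources used here give neither version nor settings. No value lay below 1.4 and array medians were 17.3 to 19, so the intensities were read as linear and log2 was taken. Precision is limited by the 3 arrays of each group.

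The platform annotation named the probe sets (34958 with 1 gene, 932 with several, 9211 with none); 34754 matched RefSeq (GRCm38.p6) by Entrez identifier and no symbol changed. Control probe sets were left out, and the probe sets with a log2 value of at least 4 in at least 3 arrays were kept. A model of 4 group means over all 12 arrays was fitted with limma 3.58.1 in R 4.3.3 (eBayes with trend, 8 residual and 5.28 prior degrees of freedom). A gene outside the 9 was represented by its probe set with the highest mean. Genes of the wider lists were named where they passed, and the 3 nearest patterns were named for each of the 9 with a passed test and group means at least 1 apart on the log2 scale, which held for Crabp2 alone. The members and lists were chosen with earlier results of these data known.

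On simulated data for the 129Sv comparison, 200 of 24820 probe sets were changed, against 1301 that passed in the data. The shares found hold for that setting. There, 12% of log2 changes of 0.5, 64% of those of 1 and 92% of those of 2 were found, and 6.94% of calls were false. For the B6 comparison 10%, 54% and 94% were found. For the difference of the knockout effects the shares were lower, at 2%, 20% and 66%. Alternatives covered filters, scaling, variance model, array weights, covariates, blocks and each array left out.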

Additional observations from a re-analysis of the deposited data

Results flagged for a closer look

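Crabp2 drew attention because its knockout effect differed between the strains by the test of that difference itself. The log2 effect in 129Sv exceeded that in B6 by 2.15 ± 0.35 (SE, limma adjusted p = 0.0184), with the 3 129Sv knockout arrays between 1829 and 2521 and the B6 knockout arrays between 435 and 808.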

How the results depend on the processing

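Each value below counts how many of the 9 genes passed, and each was recomputed under 25 or 26 alternatives. For 129Sv knockout against wild type the count was 3, and 1 when the title number entered as a covariate; leaving out single arrays gave 1 to 3. For B6 knockout against wild type it was 0, and 0 to 1 with single arrays left out. For the difference of the knockout effects it was 1, 3 with array weights (Rarg and Rxra besides Crabp2), 0 when the title number entered as a covariate and 0 to 1 with single arrays left out. For 129Sv against B6 wild type it was 1, 2 with array weights, with the Actb ratio as a covariate or without the 2 arrays of highest ratio (Crabp1 was added each time), 0 when the title number entered as a covariate and 1 with any single array left out. For 129Sv against B6 knockouts it was 5, 3 without the 2 arrays of highest ratio, 2 with those groups fitted alone and 2 to 5 with single arrays left out. The differences of the 9 genes that passed, of Rec8 in 129Sv, of Stra8 in B6 and of Dmrt1 kept their sign in every alternative run, and the other named differences of the wider lists were not recomputed. The causes were not tested.

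Same-numbered knockout and wild-type arrays did not deviate together (correlations of deviations from -0.511 to 0.108), so the numbers were not read as pairs. The titles of B6 replicates 1 and 2 share a first number between knockout and wild type, whose meaning the labels do not give. As a random block it left the 5 counts of passed genes as they were. With the replicate number as a block 4, 0, 1, 1 and 4 of the 9 genes passed in the 5 comparisons in the order above, Aldh1a2 being added in 129Sv and Cyp26b1 lost among knockouts, and Stra8 in B6 did not pass (adjusted p = 0.0757). Over all probe sets the counts moved by more than 1.5 times in some settings. In the 129Sv knockout comparison 1301 passed, 3169 with array weights, 280 when the title number entered as a covariate and 614 to 1997 without single arrays. In B6 1144 passed, 4691 with array weights, 660 with the Actb ratio, 344 with the groups alone and 435 to 1534 without arrays. For the difference of effects 74 passed, 1358 with array weights, 16 with the title number, 167 with 1 probe set a gene, 177 with a floor at 4 and 27 to 141 without arrays. Between wild types 3369 passed, 6430 with array weights, 1921 with the title number, 2054 with 1 probe set a gene and 1618 to 4847 without arrays. Between knockouts 7439 passed, 11214 with array weights and 4345 with 1 probe set a gene. Rara and Rarb, close to the limit of 16, could not be tested at a filter of log2 of 6, and intensities near the limit bound what could be detected.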
